A study of Mus musculus with 63 samples.

Results

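The 40 genes described here drive DNA replication and cell division, and were taken by gene name from the expression tables of ovary and pituitary. All 40 were found in each table, among 34745 genes. They comprise 17 replication genes, 2 cyclins of the entry into S phase, and 21 mitotic genes. The replication genes are the helicase subunits Mcm2 to Mcm7, Mcm10, the loading factors Cdc6 and Cdt1, Cdc45, Gins1, Gins2, Pcna, and the nucleotide supply enzymes Rrm1, Rrm2, Tyms and Tk1. The cyclins of S-phase entry are Ccne1 and Ccne2. The mitotic genes are Ccna2, Ccnb1, Ccnb2, Cdk1, Cdc20, Foxm1, Plk1, Aurka, Aurkb, Birc5, Bub1, Bub1b, Mki67, Top2a, Tpx2, Kif11, Kif20a, Kif23, Cenpe, Cenpf and Nusap1.

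The study sequenced bulk RNA of ovaries and pituitaries from female C57BL/6 mice, an inbred strain, labelled 2 months (2M) or 6 months (6M) old. The stressed mice (CUMS) had gone through changing mild stressors, a protocol known as chronic unpredictable mild stress, for 8 weeks (8W) or 12 weeks (12W), and each group had controls (Ctrl) of the same age and duration label. Age and duration give 4 sets, 2M-8W and 6M-8W after the shorter schedule and 2M-12W with 6M-12W after the longer one. Each set has 4 control and 4 stressed libraries in each tissue, except for 3 control ovaries in 6M-12W. The labels name no transgene or drug. They do not state whether same-numbered ovary and pituitary libraries share an animal. Nor do they state the oestrous stage, or whether the age is that at the start or the end of the schedule. Whether libraries of a group came from separate animals is not stated either. The p-values below therefore measure the spread between these libraries, which may in part be technical.

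A dividing cell copies its genome once per cycle. Loading factors place the Mcm helicase on origins in G1, E-type cyclins start S phase, and the sliding clamp Pcna and ribonucleotide reductase (Rrm1 with Rrm2) then serve the polymerases. Later, A- and B-type cyclins with Cdk1, the Aurora and Polo kinases, kinesins and centromere proteins carry the cell through mitosis, and most of their transcripts are made only in the late part of the cycle and are shut off in resting cells. In the ovary, granulosa cells of growing follicles are the main dividing cells, while the adult pituitary renews its hormone cells slowly.

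Ovary libraries held 12536371 to 28777668 counted reads and pituitary libraries 13514270 to 24924584. All 40 genes passed the filter on low counts in both tissues, where 17766 genes were tested in ovary and 17001 in pituitary. Values are counts scaled to library size (CPM, with TMM factors), and folds are log2, stressed over control. Their SE is the size of the fold divided by the square root of edgeR's F statistic. Some mitotic and replication genes had few reads in the pituitary, and this limits their precision. Mki67 had 18 to 143 counts per library, Rrm2 1 to 40, Ccnb1 1 to 20 and Cdk1 0 to 34. The replication genes Cdc6, Tk1 and Gins1 averaged 0.68, 0.985 and 1.14 CPM in control pituitaries. Lactotrope markers summed to at least 102252 CPM in every pituitary and granulosa markers to at least 3501 CPM in every ovary, while oocyte markers summed to at most 3.09 CPM in pituitaries and at least 135 CPM in ovaries. In the 2M-12W control ovaries lactotrope markers reached 939 CPM, somatotrope markers 531 CPM and corticotrope markers 70.8 CPM, against at most 78.1, 35.9 and 12.1 CPM in stressed ovaries, and the part of this in the ovarian folds was not tested. In bulk tissue, fewer dividing cells and less of a transcript per cell cannot be told apart.

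The members were far more abundant in ovary than in pituitary, and mitotic genes more so than replication genes. On the deposited FPKM scale (reads scaled to gene length and library size), the median ratio of control ovary to control pituitary was 19.5 over the 21 mitotic genes (6.72 to 55.7) and 5.36 over the 17 replication genes (2.10 to 29.0). It was 1.81 for Ccne1 and 1.82 for Ccne2. Over 16287 genes above 0.1 FPKM in the controls of both tissues the median ratio was 1.19. The tables of the tissues were made separately, and these ratios across them carry no test. Bub1, a spindle checkpoint kinase, had the highest ratio among the members, and Rrm2, the S-phase subunit of ribonucleotide reductase, had the highest among the replication genes, inside the range of the mitotic ones. Some helicase genes sat low in this order, while Mcm3 had 10.2: Mcm4 had a ratio of 2.10, Mcm2 2.47 and Mcm7 2.81. Pcna had 2.89, Rrm1 2.77 and Tyms, the thymidylate synthase, 2.81. In control pituitaries the mean FPKM was 7.37 for Pcna, 7.35 for Mcm4 and 8.84 for Rrm1, against 0.484 for Mki67, 0.408 for Top2a, 0.228 for Cdk1 and 0.077 for Ccnb1. In control ovaries Mki67 stood at 12.2, Top2a at 13.0 and Ccnb2 at 20.5 FPKM, next to 21.3 for Pcna and 24.5 for Rrm1. Mcm2, Mcm4 to Mcm7, Pcna and Rrm1 thus stood above every mitotic gene of the control pituitary on the FPKM scale, where the highest mitotic gene was Bub1b at 1.79.

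Promoter words differed in share between the roles. The words searched for are cell cycle promoter words, so this split is no independent check of the roles. RefSeq promoter windows (GRCm38.p6, 250 bases before to 50 after the annotated start) were found for 31 of the 40 members, and were searched on both strands for the cell cycle homology region (CHR, TTTGAA or TTTAAA), for CCAAT, and for E2F words (TTTGGCGC, TTTCGCGC, TTTCCCGC or TTTGCCGC). In the members' windows no CHR word overlaps another word, while E2F words of Mcm5 and of Mcm6 overlap on opposite strands and an E2F and a CCAAT word of Mcm7 share a base. A CHR word was in 14 of 16 mitotic windows (87.5%), in 5 of 14 replication windows (35.7%), and in 27.6% of all 32851 windows of the same length. CHR and CCAAT words stood together in 13 of 16 mitotic windows (81.25%) and in 4 of 14 replication windows (28.6%), against 10.7% of all windows. E2F words showed the opposite: they were in 6 of 14 replication windows (42.9%), in 1 of 16 mitotic windows (6.25%, that of Cdk1), and in 2.26% of all windows. These counts describe letters in a window, not bound sites.

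The 160 bases before the start are shown, 5′ to 3′ on the gene's strand. They are those of 4 mitotic genes whose pituitary transcripts fell and of 2 helicase genes. Capitals mark CHR, CCAAT and E2F words or their reverse complements, so that CCAAT may read as ATTGG. The Ccnb1 stretch lies at chr13:100786487-100786646 (minus strand), Cdk1 at chr10:69352913-69353072 (minus), Mki67 at chr7:135716380-135716539 (minus), Top2a at chr11:99024190-99024349 (minus), Mcm5 at chr8:75109349-75109508 (plus) and Mcm6 at chr1:128359706-128359865 (minus).
Ccnb1: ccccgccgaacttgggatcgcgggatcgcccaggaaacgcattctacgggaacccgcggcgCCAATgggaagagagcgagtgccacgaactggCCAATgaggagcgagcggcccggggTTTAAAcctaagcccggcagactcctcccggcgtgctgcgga
Cdk1: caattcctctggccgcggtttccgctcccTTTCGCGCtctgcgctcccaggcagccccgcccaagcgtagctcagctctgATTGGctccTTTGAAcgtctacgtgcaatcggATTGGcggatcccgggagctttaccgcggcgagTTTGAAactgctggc
Mki67: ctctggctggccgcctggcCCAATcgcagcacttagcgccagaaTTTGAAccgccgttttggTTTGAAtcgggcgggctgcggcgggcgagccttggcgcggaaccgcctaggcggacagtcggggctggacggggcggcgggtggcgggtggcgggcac
Top2a: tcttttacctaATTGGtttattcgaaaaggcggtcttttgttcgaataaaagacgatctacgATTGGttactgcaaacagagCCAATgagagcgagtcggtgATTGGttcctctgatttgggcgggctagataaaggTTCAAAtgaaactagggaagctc
Mcm5: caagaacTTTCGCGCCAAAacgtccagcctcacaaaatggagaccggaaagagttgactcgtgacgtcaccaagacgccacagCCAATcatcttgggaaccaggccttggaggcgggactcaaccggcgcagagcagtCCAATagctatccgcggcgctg
Mcm6: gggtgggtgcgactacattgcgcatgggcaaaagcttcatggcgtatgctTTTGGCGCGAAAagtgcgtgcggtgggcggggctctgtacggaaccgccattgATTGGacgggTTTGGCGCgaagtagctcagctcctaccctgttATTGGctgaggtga
The mitotic stretches hold CCAAT words upstream of or around a CHR word, and those of Mcm5 and Mcm6 hold E2F words beside CCAAT. Cdk1 holds all 3 kinds. So does the whole window of Mcm5, with a CHR word at -221, upstream of the bases shown. In this, Cdk1 and Mcm5 depart from the split between the roles.

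**Figure D1:**
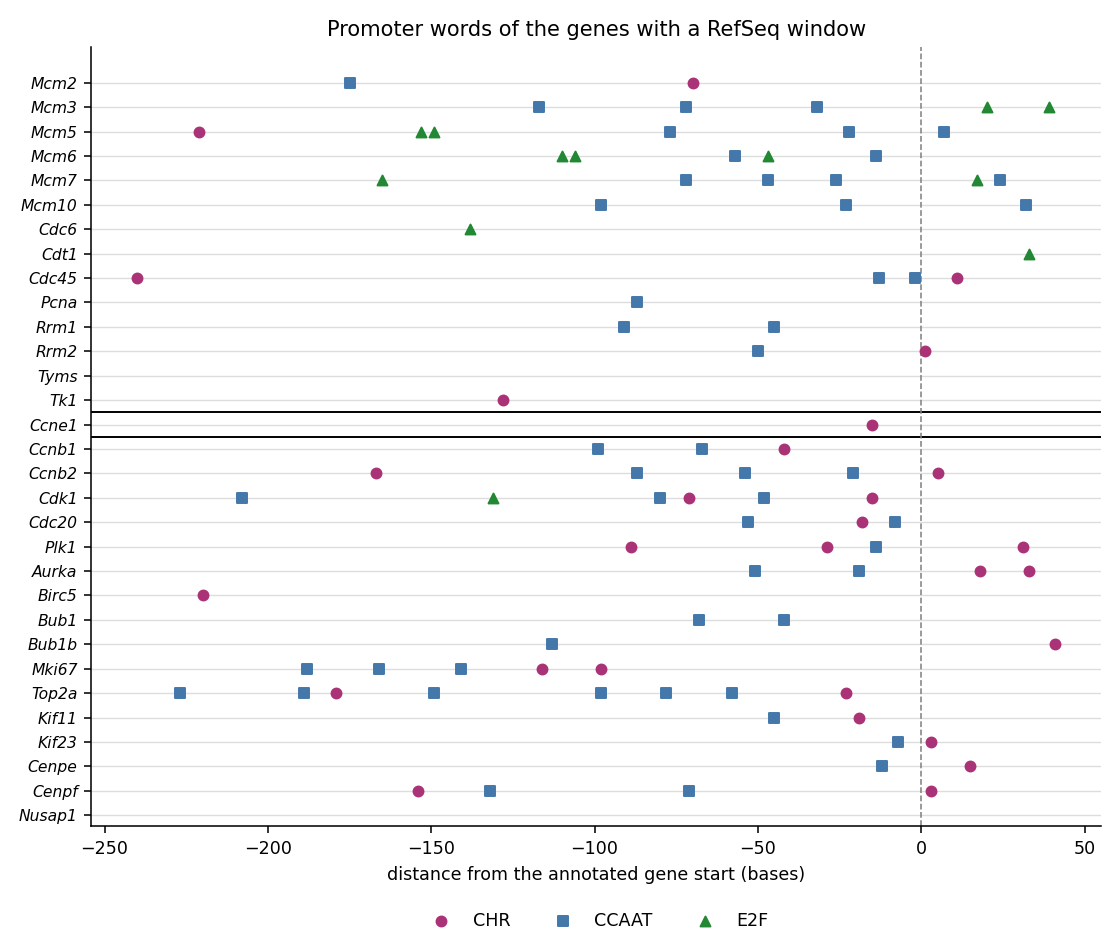
Positions of promoter words in the 31 members with a RefSeq window. The x axis is the distance in bases from the annotated start (dashed line), each row is a gene, black lines part replication genes (top), Ccne1 and mitotic genes (bottom), and symbols mark CHR, CCAAT and E2F words on either strand. CHR words (circles) lie mainly in the mitotic rows and E2F words (triangles) mainly in the replication rows.

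In the pituitary, genes of mitosis fell under stress, and 1 replication gene fell with them. Averaged over the 4 sets, 10 members fell and 0 rose: 9 of 21 mitotic genes, 1 of 17 replication genes (Rrm2) and none of the E-type cyclins passed an adjusted p under 0.05 (edgeR quasi-likelihood test). Among all 17001 genes tested, 3.37% fell by the same rule and 3.07% rose. The median fold was -0.55 over the mitotic genes, -0.08 over the replication genes and 0.00 over all genes. At an unadjusted p under 0.05, 19 members were lower and 0 higher, and DESeq2 called 11 lower and 0 higher.

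Mki67, the proliferation antigen of cycling cells, had the smallest p. In the 2M-8W set its level was 5.29, 2.61, 7.32 and 5.49 CPM in the 4 control pituitaries and 1.59, 1.45, 2.01 and 2.94 CPM in the stressed ones. In 2M-12W the controls had 2.28, 7.52, 6.49 and 3.57 CPM and the stressed 2.24, 2.65, 2.03 and 2.35 CPM. The stressed libraries lay low and close together, and 1 control of each of these sets lay among them, so the groups overlapped. In 6M-8W the controls had 2.605, 3.93, 2.03 and 4.05 CPM and the stressed 2.92, 1.57, 1.27 and 2.07 CPM, again with overlap. In 6M-12W they had 6.82, 3.41, 11.9 and 4.22 CPM and 1.55, 2.72, 1.73 and 1.26 CPM, and here every control lay above every stressed library. The mean fold was -1.25 ± 0.19 (adjusted p = 7.09e-05), and 16 of 16 stressed libraries were below their own control mean.

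Top2a, the topoisomerase that untangles sister chromatids, followed Mki67. In 2M-8W its controls had 3.44, 2.39, 4.303 and 5.69 CPM and the stressed 1.52, 0.725, 2.97 and 4.05 CPM. The 2M-12W controls had 1.36, 7.71, 7.705 and 5.15 CPM and the stressed 2.04, 1.6998, 1.87 and 2.01 CPM. In the latter set 3 controls stood well above the stressed libraries and control 1 below all of them. The 6M-8W controls had 3.71, 4.91, 2.45 and 4.83 CPM against 2.73, 2.08, 2.24 and 2.02 CPM under stress. In 6M-12W the levels were 3.84, 3.47, 7.64 and 2.33 CPM in controls and 1.46, 0.501, 1.04 and 1.82 CPM in stressed libraries. The groups overlapped in 6M-8W and were apart in 6M-12W. The mean fold of Top2a was -1.22 ± 0.22 (adjusted p = 0.000695), with 15 of 16 stressed libraries below the control mean.

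Cdk1, the kinase that starts mitosis, stood near 1 CPM. In 2M-8W it had 1.08, 0.798, 1.51 and 1.56 CPM in controls and 0.529, 0.484, 1.06 and 0.915 CPM under stress, and in 2M-12W 0.641, 1.85, 1.87 and 1.03 CPM and 0.417, 0.7499, 0.693 and 0.631 CPM. In 6M-8W it had 1.05, 1.44, 0.597 and 1.61 CPM and 0.532, 0.503, 0.3897 and 0.459 CPM, and all 4 stressed libraries were below all 4 controls. In 6M-12W it had 0.728, 0.801, 1.33 and 0.567 CPM and 0.444, 0, 0.276 and 0.839 CPM, where 1 stressed library had no Cdk1 read and another lay above 3 of the controls. Its mean fold was -1.04 ± 0.23 (adjusted p = 0.00378), lower in 16 of 16 stressed libraries than in their control mean.

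Ccnb1, the B-type cyclin that pairs with Cdk1, rested on 1 to 20 reads per library. Its controls had 0.616, 0.213, 0.782 and 1.29 CPM in 2M-8W and 0.2404, 0.956, 1.101 and 0.788 CPM in 2M-12W, against 0.264, 0.0605, 0.477 and 0.523 CPM and 0.104, 0.29996, 0.16003 and 0.2295 CPM under stress. In 6M-8W the controls had 0.499, 0.693, 0.239 and 0.358 CPM and the stressed 0.133, 0.189, 0.195 and 0.413 CPM. In 6M-12W, where control 3 was far above the rest, the controls had 0.331, 0.0668, 1.496 and 0.441 CPM and the stressed 0.355, 0.215, 0.207 and 0.2097 CPM. The groups overlapped in every set. The mean fold was -1.23 ± 0.32 (adjusted p = 0.0166), and this call was lost without 6M-12W control pituitaries 3 and 4 or without the 2M-12W set.

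Ccna2, the A-type cyclin of S phase and early mitosis, fell less, with a mean fold of -0.55 ± 0.11 (adjusted p = 0.00257). Its groups overlapped in 2M-8W, with 3.799, 3.88, 4.19 and 5.28 CPM in controls and 3.97, 2.78, 4.71 and 3.59 CPM under stress, and in 6M-8W, with 3.602, 4.45, 3.22 and 4.23 CPM and 4.05, 4.09, 2.39 and 3.49 CPM. In the 12-week sets the groups did not overlap: 2M-12W had 3.69, 6.44, 4.07 and 5.39 CPM in controls and 2.97, 2.35, 2.61 and 2.75 CPM under stress, and 6M-12W 4.83, 6.14, 9.14 and 3.65 CPM and 2.66, 3.36, 3.38 and 2.38 CPM. The call was lost without the 6M-12W set. Ccna2 overlaps Exosc9 on the opposite strand, and the strand setting of the counting is not given in the sources used here. The other mitotic genes that fell were the mitotic kinesins Kif20a (-0.53 ± 0.12) and Kif11 (-0.76 ± 0.18), the centromere protein Cenpf (-1.02 ± 0.24) and the chromosomal passenger kinase Aurkb (-1.22 ± 0.29). Kif20a overlaps Cdc23 on the opposite strand, which was read at a mean of 1639.6 counts in these libraries against 12 to 60 counts for Kif20a. Of the 12 mitotic genes not past the threshold, 11 had a fold below 0, from -1.18 for Bub1 (adjusted p = 0.172) to -0.13 for its partner Bub1b, and the kinetochore motor Cenpe had 0.01.

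**Figure D2:**
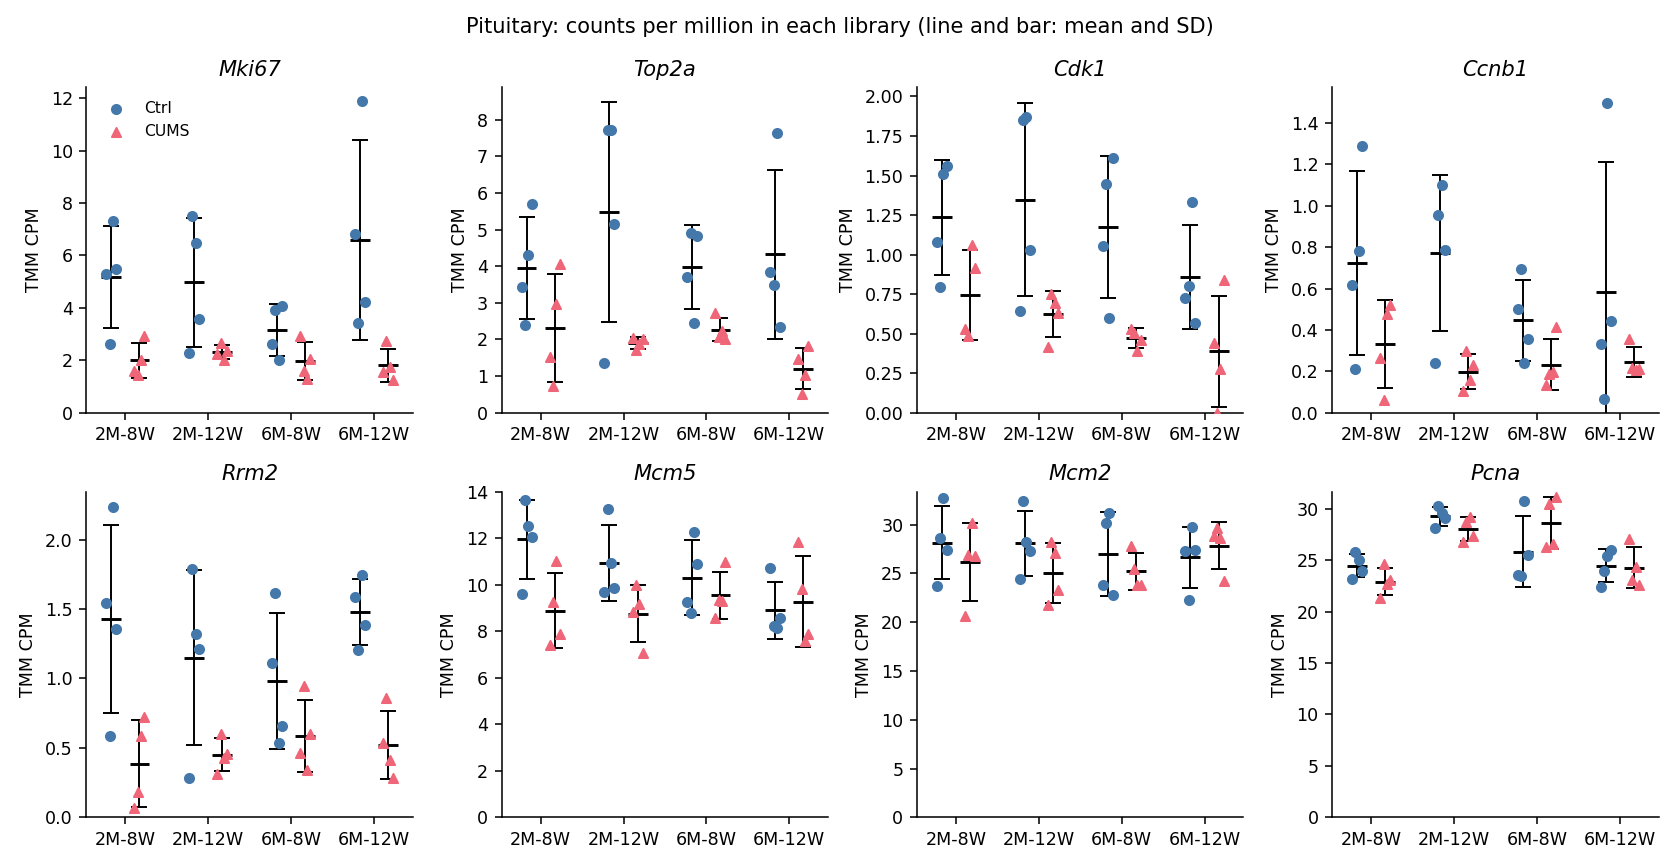
Pituitary CPM of 8 members in each library, by set (x axis) and treatment (circles Ctrl, triangles CUMS). Black lines and bars are the mean and SD, and axes start at 0, which cuts the lower bar of Ccnb1 in the 6M-12W controls. Mki67, Top2a and Rrm2 average lower in the stressed groups and are apart from the controls in 6M-12W, Cdk1 in 6M-8W, while Ccnb1, Mcm5, Mcm2 and Pcna overlap between the groups of every set.

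Among replication genes the pituitary change was that of Rrm2, whose level was 1.54, 0.585, 2.24 and 1.35 CPM in the 2M-8W controls and 0.0661, 0.181, 0.583 and 0.719 CPM in the stressed. The 2M-12W set had 0.2804, 1.79, 1.32 and 1.21 CPM and 0.313, 0.5999, 0.427 and 0.459 CPM, with control 1 lowest of all. In 6M-8W the levels were 1.11, 1.62, 0.537 and 0.656 CPM and 0.465, 0.944, 0.341 and 0.597 CPM. Only the 6M-12W groups were apart, at 1.59, 1.202, 1.75 and 1.39 CPM in controls and 0.532, 0.859, 0.414 and 0.2795 CPM under stress. Rrm2 had the largest mean fold of the 40 members in size, -1.35 ± 0.25 (adjusted p = 0.000906), and 16 of 16 stressed libraries were below their control mean. Rrm1, the other subunit of the same enzyme, had -0.04 ± 0.03 and Tyms -0.13 ± 0.07.

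No helicase gene passed the test, nor did the clamp. Mcm2 to Mcm7 had a median fold of -0.08, 0 of 6 passed the threshold, 1 had an unadjusted p under 0.05, and DESeq2 called 0. Mcm2 read 23.7, 28.7, 32.7 and 27.4 CPM in 2M-8W controls and 20.6, 26.9, 30.2 and 26.8 CPM in stressed libraries. In 6M-12W it read 27.3, 22.3, 29.7 and 27.3 CPM and 28.9, 29.6, 28.6 and 24.2 CPM, with the stressed group inside the range of the controls. In the 2M-12W set it had 24.4, 32.5, 28.2 and 27.3 CPM and 21.7, 28.2, 27.1 and 23.3 CPM, and in 6M-8W 23.8, 30.2, 31.2 and 22.8 CPM and 27.8, 25.4, 23.8 and 23.8 CPM, so that the groups overlapped in all 4 sets. Its mean fold was -0.08 ± 0.06.

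Pcna, the polymerase clamp, had a mean fold of 0.00 ± 0.04. It had 23.2, 25.7, 24.98 and 23.9 CPM in the 2M-8W controls and 21.3, 24.6, 22.7 and 23.1 CPM in the stressed, and 28.1, 30.3, 29.6 and 29.1 CPM and 26.8, 28.7, 29.2 and 27.3 CPM in 2M-12W. In 6M-8W it had 23.6, 23.5, 30.8 and 25.5 CPM and 26.3, 30.4, 26.6 and 31.1 CPM, and in 6M-12W 22.4, 23.97, 25.4 and 26.02 CPM and 27.1, 23.1, 24.4 and 22.6 CPM. The groups overlapped throughout. The pseudogene Pcna-ps2 was read at a mean of 221 counts in pituitary and 798 in ovary, so reads may be shared between it and Pcna. Mcm5 had the smallest p of the helicase genes, at a fold of -0.20 ± 0.08 that did not pass (adjusted p = 0.148). Its 2M-8W controls had 9.601, 13.7, 12.5 and 12.1 CPM against 7.401, 9.25, 11.01 and 7.91 CPM under stress, and its 2M-12W controls 9.69, 13.3, 10.95 and 9.88 CPM against 8.82, 9.999, 9.18 and 7.06 CPM. In 6M-8W it had 9.26, 8.78, 12.3 and 10.9 CPM and 8.57, 9.37, 9.304 and 10.97 CPM, and in 6M-12W 10.7, 8.21, 8.14 and 8.57 CPM and 11.8, 9.81, 7.59 and 7.897 CPM. Stressed libraries lay towards the low side in the 2-month sets and among the controls in the 6-month sets. Tyms, with 6.52, 6.22, 7.82 and 6.37 CPM in 2M-8W controls and 5.22, 7.07, 5.98 and 6.47 CPM in stressed libraries, overlapped between the groups of every set. It had 7.57, 8.097, 7.15 and 6.18 CPM and 7.51, 6.45, 6.83 and 6.94 CPM in 2M-12W, and 6.48, 6.64, 5.55 and 6.02 CPM and 6.18, 5.47, 6.63 and 5.14 CPM in 6M-8W. In 6M-12W its control 3 stood out, with 6.42, 6.81, 9.97 and 5.04 CPM in controls and 6.48, 6.08, 5.04 and 6.01 CPM under stress.

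Within the sets, the pituitary direction was the same but rarely passed the test, and the mean of 4 sets carried the calls. The mitotic median fold was lowest in 2M-12W (-0.81) and 6M-12W (-0.78), -0.69 in 2M-8W and nearest 0 in 6M-8W (-0.25), and that of the replication genes lay between -0.10 and 0.00. Only Mki67 in 6M-12W passed (-1.85 ± 0.39, adjusted p = 0.0245), where 0.176% of all genes fell. In 6M-8W, 2M-8W and 2M-12W 0 members passed edgeR's test, with 4.7%, 0.424% and 0.582% of all genes past it in either direction. There, 3, 9 and 11 members were lower at an unadjusted p under 0.05, 0, 2 and 0 were higher, and DESeq2 called 1, 1 and 3 lower. The Mki67 call was lost without control 3 or without stressed library 1, 3 or 4. The stress fold of a member differed between ages or durations in 0 cases in the pituitary (edgeR, 4 comparisons, with at most 3 members at an unadjusted p under 0.05 in each and 0 by DESeq2), where 0.182% and 0.0235% of all genes differed by age at 8 and 12 weeks, and 0% and 0.359% by duration at 2 and 6 months.

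In some groups the mitotic genes of a pituitary library were high or low as a block. Control 1 of 2M-12W was the lowest of its group for 19 of 21 mitotic genes, with a mean level of 0.75 (mean log2 of CPM + 0.5) against 1.30 to 1.69 in the other controls. Control 3 of 6M-12W was the highest for 15 of 21, at 1.75 against 0.98 to 1.205. That library also had the lowest depth (13514270 reads) and the highest mitochondrial share of reads (10.02%) of all pituitaries, against 4.19% to 6.19% in the other 3 controls, and the part of this in its mitotic level was not tested. Other groups were mixed. Stressed pituitaries 1 to 4 of 2M-12W were the highest for 4, 7, 3 and 7 of 21 mitotic genes, at mean levels of 0.78 to 0.90. Those of 6M-12W were the highest for 3, 5, 3 and 10. Over the 4 sets the mean mitotic level of single libraries was 0.73 to 1.75 in controls and 0.49 to 1.16 under stress. The corresponding replication level was 2.60 to 2.88 in controls and 2.54 to 2.75 under stress, a much narrower range.

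Marker genes of other pituitary cells were read beside these values. Of 8 endothelial markers 4 fell and 0 rose (median fold -0.23), and their summed level was 383 to 459 CPM in controls and 338 to 440 CPM under stress. Macrophage markers summed to 99.9 to 150.2 CPM in controls and 99.05 to 149.5 CPM under stress, lymphocyte markers to 12.6 to 27.9 and 12.3 to 23.2 CPM, and markers of the pituitary stem cells to 213 to 322 and 240 to 367 CPM. Of 9 macrophage markers 1 fell, of 8 stem cell markers 1 rose and none of the 6 lymphocyte markers tested passed. All 4 corticotrope markers rose (median fold 0.52), and their summed level was higher in every stressed than in every control library of each set. It was 8707 to 16668 CPM in controls and 17563 to 36138 CPM under stress in 2M-8W, and 7933 to 12236 and 16426 to 22488 CPM in 2M-12W. In 6M-8W it was 7638 to 11743 and 13306 to 24022 CPM, and in 6M-12W 3202 to 9239 and 10473 to 13101 CPM. The part of any of these cells in the fall of mitotic genes was not tested.

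In the ovary the direction was upwards on average and by small folds, and 5 of the 8 genes that passed were helicase subunits of Mcm2 to Mcm7. Averaged over the 4 sets 8 members rose and 0 fell: 6 of 17 replication genes, Ccne2 and 1 of 21 mitotic genes. Among all 17766 genes tested 8.86% rose and 11.5% fell. The median fold was 0.15 over the replication genes, 0.16 over the mitotic genes and 0.01 over all genes. The 6 replication genes were Mcm2 (0.21 ± 0.05), Mcm3 (0.25 ± 0.05), Mcm4 (0.16 ± 0.05), Mcm6 (0.22 ± 0.05), Mcm7 (0.17 ± 0.04) and Gins2, a subunit of the active helicase (0.15 ± 0.05). Ccne2 had 0.27 ± 0.08 and Cenpe 0.21 ± 0.07. DESeq2 called 12 members higher and 0 lower, and 24 were higher at an unadjusted p under 0.05. By role, DESeq2 called 6 replication and 5 mitotic genes, and 8 of 17 replication and 15 of 21 mitotic genes were higher at an unadjusted p under 0.05. The difference between the roles was not tested. Gins2 overlaps Gse1, and Ccne2 overlaps Ints8, both on the opposite strand.

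The folds of the single sets pointed in different directions. In 2M-8W all 40 folds were above 0 and 14 members rose, where 3.96% of all genes rose. In 6M-12W 39 of 40 folds were above 0 and 10 members rose, against 5.18% of all genes. In 2M-12W 0 members passed (4 were higher at an unadjusted p under 0.05, and DESeq2 called 0), with 6.74% of all genes past the threshold in either direction. In 6M-8W 39 of 40 folds were below 0 and 1 member, Gins2, fell (-0.38 ± 0.09, adjusted p = 0.0455), against 0.563% of all genes. A rise in the stressed ovary was thus measured in 2 of the 4 sets, and the mean over the sets depended on which sets and libraries were in it. It held 30 members higher and 0 lower without the 6M-8W set, 3 higher without 2M-8W and 3 higher without 6M-12W. It held 21 higher without 6M-8W control 2, 15 without 2M-8W stressed ovary 1, 13 without 2M-8W control 1 and 5 without 6M-8W stressed ovary 4.

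**Figure D3:**
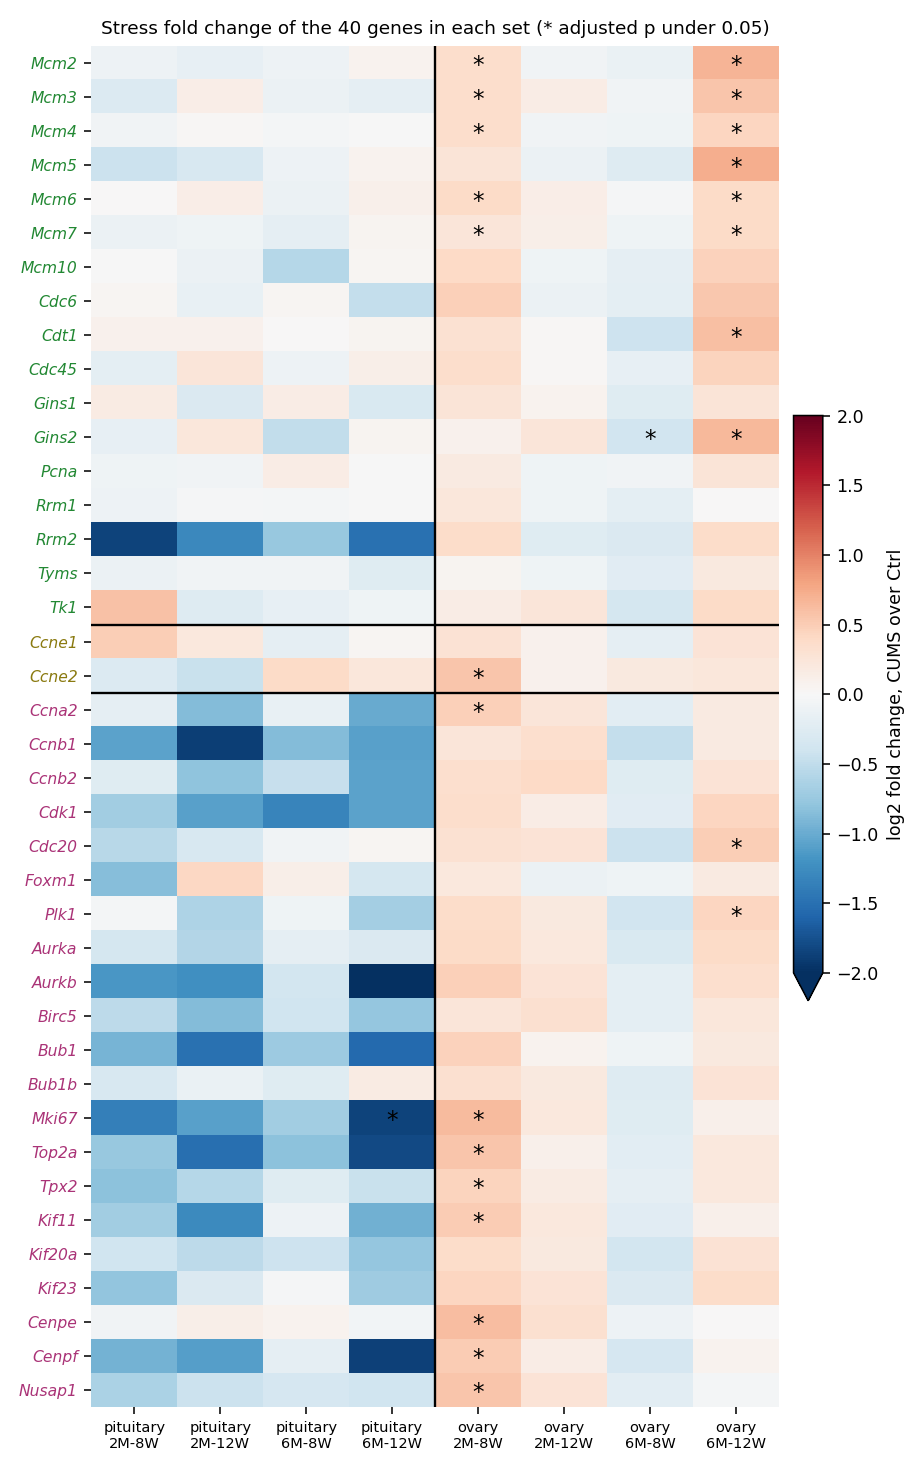
Log2 stress fold (colour, red higher and blue lower under CUMS) of each of the 40 members (rows) in the 4 pituitary and 4 ovary comparisons (columns). Horizontal lines part replication genes, E-type cyclins and mitotic genes, stars mark an adjusted p under 0.05, and Aurkb in 6M-12W pituitary, at -2.12, lies past the end of the scale. Pituitary blue is in the mitotic rows and Rrm2, ovary red is in the 2M-8W and 6M-12W columns, and the 6M-8W ovary column is pale blue.

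The sets that rose differed in which genes passed. In 2M-8W ovaries the risers were 5 of 17 replication genes (Mcm2, Mcm3, Mcm4, Mcm6 and Mcm7), Ccne2 and 8 of 21 mitotic genes. The mitotic ones were Mki67, Top2a, Cenpe, Cenpf, Kif11, Tpx2, Nusap1 and Ccna2. In 6M-12W ovaries they were 8 of 17 replication genes (all of Mcm2 to Mcm7, with Cdt1 and Gins2) and 2 of 21 mitotic genes (Cdc20 and Plk1). The difference between these sets was not tested directly.

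Mki67 in the 2M-8W ovaries had 145, 127, 121 and 109 CPM in controls and 176, 169.5, 259 and 171 CPM under stress, a fold of 0.63 ± 0.14 (adjusted p = 0.0175). All stressed ovaries were above all controls, and stressed ovary 3 was far above the rest. In 6M-12W the 3 controls had 136, 104 and 125 CPM and the stressed 146, 127, 130.0 and 116 CPM, which overlapped. In 2M-12W the levels were 142, 118, 122 and 129.7 CPM and 141, 141, 129 and 179 CPM, and in 6M-8W 135, 139.8, 87.6 and 113 CPM and 98.2, 89.96, 102 and 112 CPM. Over the 4 sets its fold was 0.17 ± 0.07 and did not pass (adjusted p = 0.0897).

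Top2a, too, passed in 2M-8W only. Its 2M-8W controls had 139.7, 132, 135 and 112 CPM and the stressed 163, 175, 245 and 175 CPM, with a fold of 0.55 ± 0.16 (adjusted p = 0.0364). In 6M-12W it had 128, 135 and 128 CPM in controls and 169, 152, 149 and 133 CPM under stress. In both of these sets most stressed ovaries were high, but 6M-12W stressed ovary 4 lay among its controls. In 2M-12W it had 194, 129, 167 and 161 CPM and 165, 152, 161 and 219 CPM, and in 6M-8W 152, 175, 93.6 and 126 CPM and 110.3, 106, 123 and 135 CPM, both overlapping. Its mean fold was 0.16 ± 0.08 (adjusted p = 0.141).

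Cdk1 had 28.8, 30.95, 31.9 and 30.8 CPM in 2M-8W controls and 29.6, 47.2, 43.9 and 36.2 CPM under stress, and 26.3, 26.96 and 26.6 CPM and 42.1, 36.2, 35.7 and 29.7 CPM in 6M-12W, where the controls lay within 1 CPM of each other and below all stressed ovaries. It had 46.7, 32.6, 38.4 and 37.9 CPM and 39.4, 40.6, 43.4 and 49.01 CPM in 2M-12W, and 36.1, 43.1, 27.8 and 35.7 CPM and 25.2, 29.9, 29.2 and 37.3 CPM in 6M-8W. Its mean fold of 0.18 ± 0.07 did not pass (adjusted p = 0.0825). Ccnb1 was flatter, at 0.07 ± 0.09 (adjusted p = 0.59). Its levels were 20.7, 27.3, 20.7 and 18.03 CPM in 2M-8W controls and 22.04, 23.6, 30.9 and 25.7 CPM under stress, and 20.8, 18.3, 20.7 and 21.2 CPM and 22.1, 25.6, 21.9 and 33.2 CPM in 2M-12W. In 6M-8W it had 20.6, 28.2, 14.8 and 16.3 CPM and 15.2, 11.7, 13.3 and 17.3 CPM, and in 6M-12W 16.7, 14.2 and 17.5 CPM and 19.9, 18.9, 19.4 and 15.4 CPM. Only the 2M-12W groups of Ccnb1 were apart, with stressed ovary 4 highest.

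Cenpe, the kinetochore motor, was the mitotic gene that passed in the mean (adjusted p = 0.0359). It had 31.8, 26.3, 26.8 and 20.5 CPM in 2M-8W controls and 36.3, 37.9, 49.3 and 37.9 CPM under stress, and 33.8, 27.1, 28.005 and 29.7 CPM and 35.04, 34.7, 35.8 and 42.9 CPM in 2M-12W, with all stressed ovaries above all controls in both. In the 6-month sets the groups overlapped, at 26.7, 34.1, 20.1 and 23.6 CPM and 21.6, 21.8, 25.4 and 29.01 CPM in 6M-8W and 31.7, 26.7 and 25.9 CPM and 30.6, 27.7, 28.5 and 26.1 CPM in 6M-12W. The call held in 15 of 31 fits that left out a library. Aurkb and Ccnb2 came next and did not pass (adjusted p = 0.0544 and 0.0633). Aurkb had 20.1, 21.2, 17.1 and 18.2 CPM in 2M-8W controls and 22.2, 29.6, 34.1 and 20.6 CPM under stress, and 19.3, 19.9 and 19.1 CPM and 28.8, 21.2, 24.002 and 24.1 CPM in 6M-12W. In 2M-12W it had 23.4, 16.4, 23.2 and 20.7 CPM and 23.3, 27.2, 21.3 and 29.2 CPM, and in 6M-8W 22.1, 21.5, 13.7 and 17.97 CPM and 15.03, 16.02, 14.5 and 20.2 CPM. Its groups were apart in 6M-12W only. Ccnb2, a B-type cyclin, had 35.1, 35.001, 33.6 and 28.5 CPM in 2M-8W controls and 37.4, 42.7, 47.7 and 38.5 CPM under stress, and 34.99, 28.9, 31.4 and 32.4 CPM and 33.9, 43.3, 38.04 and 53.4 CPM in 2M-12W. In 6M-8W it had 32.7, 43.9, 25.7 and 28.3 CPM and 25.1, 25.9, 26.01 and 33.1 CPM, and in 6M-12W 28.9, 29.6 and 28.03 CPM and 37.3, 33.96, 38.8 and 28.9 CPM. Stressed ovaries of Ccnb2 were on the high side in every set but 6M-8W.

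The helicase genes were the clearest in 6M-12W. Mcm5 had 45.8, 40.2 and 44.5 CPM in the 3 control ovaries and 76.2, 69.04, 75.1 and 68.8 CPM in the 4 stressed ones, a fold of 0.73 ± 0.15 (adjusted p = 0.00461). Mcm2 had 60.1, 51.7 and 63.1 CPM and 96.7, 89.5, 97.2 and 90.8 CPM, a fold of 0.68 ± 0.11 (adjusted p = 0.00111). Both groups were tight and wide apart. Mcm3 had 61.6, 58.5 and 60.6 CPM and 94.8, 87.9, 87.2 and 83.8 CPM (0.55 ± 0.11), Mcm7 86.7, 85.6 and 87.04 CPM and 117, 112, 113 and 109 CPM (0.39 ± 0.08), and Mcm6 93.98, 78.1 and 101 CPM and 119.8, 116, 119 and 119.6 CPM (0.38 ± 0.11). Cdt1, which loads the helicase, rose by 0.60 and Gins2 by 0.64 in this set. Mcm2, Mcm3, Mcm5, Mcm7 and Gins2 passed in all 7 fits that left out a library of this set, while Cdc20 and Plk1 passed in 0 of 7. The count of members that rose was 5 without control 2 and 6 without control 1, in place of 10.

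The same genes had wider stressed groups in 2M-8W, and smaller folds apart from Mcm6, whose fold was similar. Mcm2 had 77.6, 74.1, 74.005 and 68.8 CPM in controls and 82.7, 98.3, 90.9 and 104 CPM under stress (0.35 ± 0.10), and Mcm5, which did not pass, 60.2, 68.8, 58.8 and 58.6 CPM and 57.8, 78.7, 71.6 and 86.7 CPM (0.26 ± 0.14). Mcm3 had 65.4, 66.1, 69.9 and 68.5 CPM and 76.7, 87.7, 86.6 and 94.4 CPM, Mcm6 101, 116, 101 and 106 CPM and 120.3, 136, 160.4 and 135 CPM, and Mcm7 96.1, 101, 89.5 and 99.2 CPM and 102, 119.8, 112 and 124 CPM. Stressed ovary 1 was the lowest of its group for 15 of 17 replication and 15 of 21 mitotic genes, and stressed ovary 3 the highest for 17 of 21 mitotic genes. The latter had the lowest depth (12536371 reads) and the highest mitochondrial share (7.11%) of all ovaries, and the part of this in its level was not tested. Of the 14 calls in this set 0 were left without stressed ovaries 1 and 3, without control 2, control 4 or stressed ovary 3, or with only the set's own groups in the fit. The call count was 8 without control 3 and 4 without stressed ovary 1.

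In the other sets no helicase gene passed. In 2M-12W Mcm2 had 73.6, 67.95, 68.5 and 68.7 CPM in controls and 60.1, 69.6, 68.2 and 68.6 CPM under stress, Mcm5 60.4, 55.4, 49.1 and 63.1 CPM and 48.1, 56.05, 49.8 and 57.4 CPM, and Mcm3 70.5, 62.5, 59.8 and 58.1 CPM and 66.5, 72.7, 68.8 and 69.9 CPM. Mcm6 had 114, 102, 101 and 104 CPM and 123, 105, 117 and 117 CPM, and Mcm7 97.8, 89.8, 89.3 and 91.9 CPM and 99.9, 100.2, 108 and 94.2 CPM. Stressed ovary 1 was low for Mcm2 and Mcm5, and Mcm3 leaned up. In 6M-8W Mcm2 had 70.8, 80.3, 49.4 and 69.1 CPM and 56.9, 63.2, 56.9 and 69.6 CPM, Mcm5 62.9, 65.8, 38.1 and 64.1 CPM and 39.8, 46.2, 46.1 and 61.9 CPM, and Mcm3 72.8, 65.6, 44.02 and 62.95 CPM and 54.6, 56.2, 53.8 and 69.5 CPM. Mcm6 had 108, 117, 82.4 and 99.3 CPM and 86.7, 96.7, 106 and 112 CPM, and Mcm7 96.7, 103, 79.9 and 86.7 CPM and 79.7, 82.2, 83.1 and 99.6 CPM. Control ovary 3 of 6M-8W was the lowest of its group for all 17 replication and all 21 mitotic genes. Without it the groups of Mcm5 would not overlap, while those of Mcm2, Mcm3, Mcm6 and Mcm7 still would, with stressed ovary 4 high, and 6 members fell in place of 1. Without any one of the other 7 libraries of this set 0 members passed.

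Pcna and the nucleotide supply enzymes did not pass in any ovary comparison of single sets or of their mean. Pcna had 66.1, 73.96, 71.3 and 69.9 CPM in 2M-8W controls and 69.5, 78.1, 82.9 and 88.999 CPM under stress, and 58.5, 68.6 and 66.1 CPM and 78.3, 76.9, 82.5 and 69.03 CPM in 6M-12W, where the stressed ovaries were all above the controls. In 2M-12W it had 87.2, 81.3, 79.1 and 88.1 CPM and 78.5, 76.02, 78.4 and 83.4 CPM, and in 6M-8W 82.2, 84.3, 66.1 and 84.2 CPM and 72.01, 76.8, 73.6 and 79.5 CPM. Its mean fold was 0.07 ± 0.04 (adjusted p = 0.22). Rrm2, which fell in pituitary, had a mean fold of 0.05 ± 0.08 in ovary (adjusted p = 0.705). Its levels were 31.7, 42.6, 37.5 and 30.96 CPM in 2M-8W controls and 35.8, 43.05, 55.96 and 50.1 CPM under stress, and 44.99, 36.4, 34.7 and 46.1 CPM and 28.4, 37.8, 33.9 and 36.7 CPM in 2M-12W. In 6M-8W it had 42.3, 42.9, 21.3 and 36.7 CPM and 26.4, 27.5, 30.6 and 31.997 CPM, and in 6M-12W 33.2, 32.2 and 33.1 CPM and 44.6, 41.7, 45.2 and 38.3 CPM. The stressed ovaries were on the high side in 2M-8W and 6M-12W and on the low side in the other sets. The groups of Rrm2 were apart in 6M-12W only. Rrm1 (-0.01 ± 0.04) and Tyms (-0.01 ± 0.07) had mean folds near 0, and Tk1, the thymidine kinase, had 0.10 ± 0.08.

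**Figure D4:**
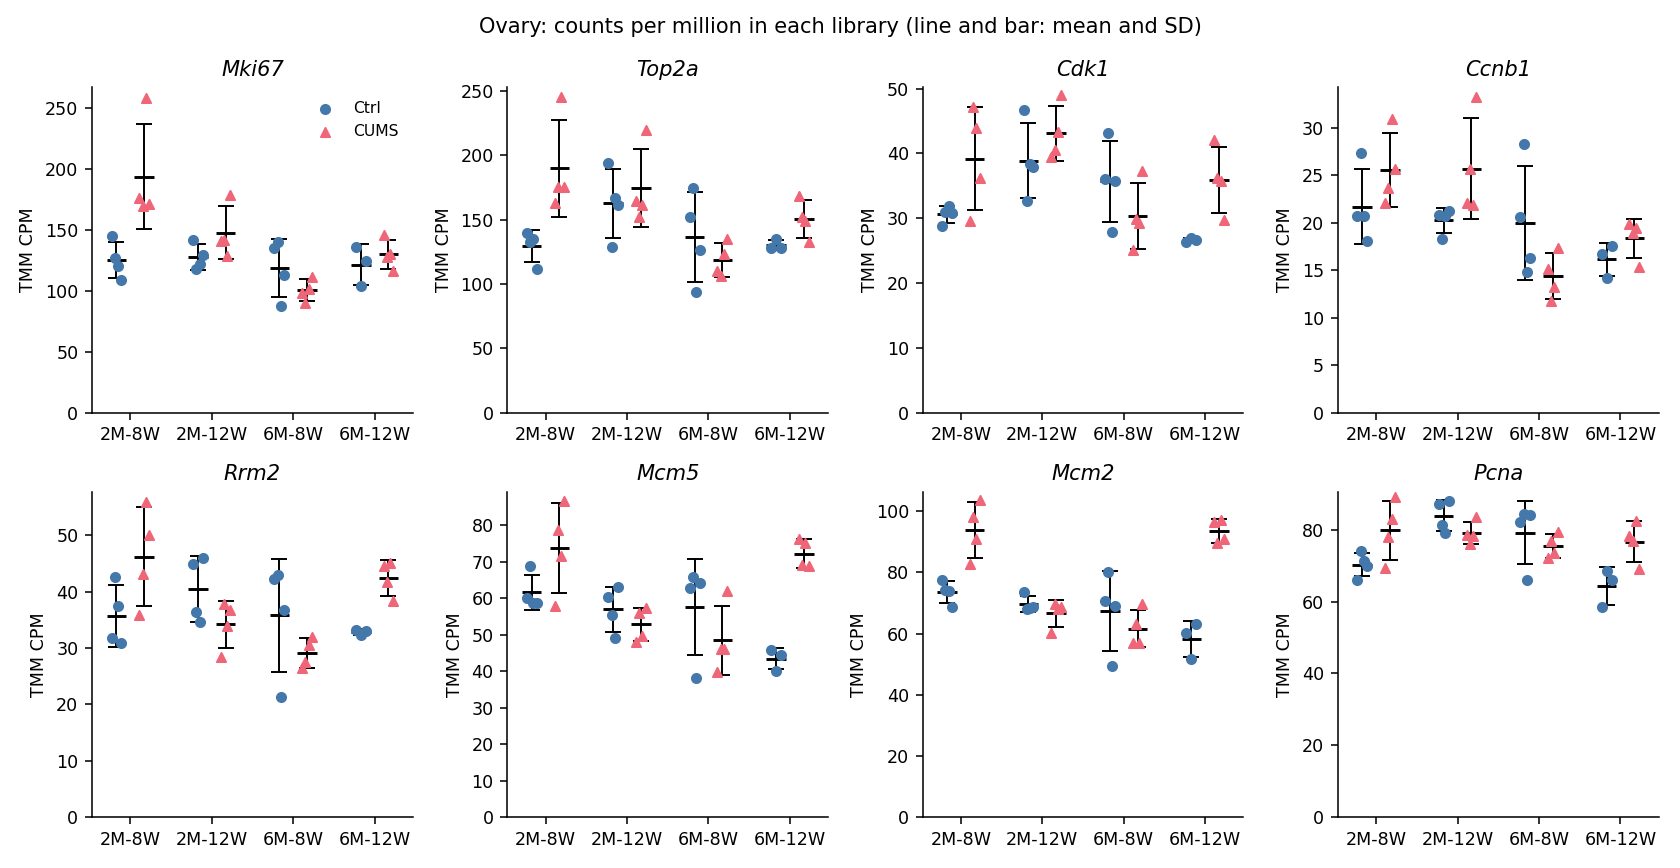
Ovary CPM of 8 members in each library, by set (x axis) and treatment (circles Ctrl, triangles CUMS), with the mean and SD in black and axes from 0. Mcm5, Mcm2, Cdk1, Rrm2 and Pcna are apart between the groups in 6M-12W, Mki67, Top2a and Mcm2 in 2M-8W, and Ccnb1 in 2M-12W. The stressed 6M-8W ovaries average below their controls.

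The stress fold in the 6-month ovary differed between the durations. In the comparison of 12 with 8 weeks at 6 months 13 members had a higher fold at 12 weeks and 0 a lower one, where 4.06% of all genes were higher. These were 8 replication genes, namely Mcm2 (log2 difference 0.81 ± 0.15), Mcm3 (0.62 ± 0.15), Mcm4 (0.53 ± 0.14), Mcm5 (0.98 ± 0.21), Mcm7 (0.47 ± 0.11), Cdt1 (1.02 ± 0.21), Gins2 (1.02 ± 0.14) and Tk1 (0.73 ± 0.22), and 5 mitotic genes. The mitotic ones were Cdc20, which activates the anaphase complex (0.92 ± 0.22), the kinases Plk1 (0.80 ± 0.19), Aurka (0.69 ± 0.19) and Cdk1 (0.66 ± 0.21), and Kif20a (0.66 ± 0.18). Mcm5 under stress thus averaged 72.3 ± 3.89 CPM (SD, n = 4) after 12 weeks and 48.5 ± 9.42 CPM after 8 weeks, beside controls of 43.5 ± 2.93 (n = 3) and 57.7 ± 13.2 CPM. This comparison was not refitted with libraries left out, and DESeq2 called 14 members higher and 0 lower. It includes 6M-8W control 3, the lowest of its group for all 17 replication and all 21 mitotic genes. The 6M-12W control ovaries had the lowest replication level of the control groups (mean log2 of CPM + 0.5), at 4.85 against 5.05 to 5.09. By age at 8 weeks 37 members had a lower stress fold at 6 than at 2 months at an unadjusted p under 0.05, but 0 passed edgeR's adjustment, 0% of all genes did, and DESeq2 called 17 lower. By age at 12 weeks 0 passed (11 higher at an unadjusted p under 0.05, 2 by DESeq2), and by duration at 2 months 0 passed (10 lower at an unadjusted p under 0.05, 0 by DESeq2), with 0% and 0.501% of all genes past the threshold.

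Some ovary libraries, too, moved as blocks. Stressed ovary 4 of 2M-12W was the highest of its group for all 21 mitotic genes, control 2 of 6M-8W for 19, and stressed ovary 4 of 6M-8W for 20. Control 2 of 2M-12W was the lowest for 19 of 21. The mean mitotic level of single ovaries was 4.81 to 5.54 in controls and 4.85 to 5.88 under stress (mean log2 of CPM + 0.5), and the replication level 4.63 to 5.31 and 4.70 to 5.42.

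Markers of ovarian cells were read beside the members. Over the 4 sets 4 of 12 granulosa markers rose (median fold 0.37), 4 of 13 oocyte markers rose (0.35), 6 of 7 theca markers rose (0.42), and 5 of 9 luteal markers fell (-0.58). Of 9 macrophage markers 5 fell, of 6 fibroblast markers 4 fell and of 8 endothelial markers 2 fell.

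In 6M-12W, where helicase genes rose, granulosa markers summed to 6908 to 7519.9 CPM in controls and 9216 to 11618 CPM under stress, oocyte markers to 135 to 459 and 454 to 634 CPM, and luteal markers to 8265 to 14370.0 and 5995 to 7099 CPM. Macrophage markers had 551 to 652 CPM in these controls and 375 to 499.7 CPM under stress, lymphocyte markers 52.0 to 69.1 and 29.96 to 36.5 CPM, and endothelial markers 503.5 to 616 and 453 to 503.3 CPM. Apart from oocyte markers, these sums did not overlap between the groups. In 2M-8W, where members rose too, of the ovarian lists named here only the endothelial sums were apart, at 484 to 584 CPM in controls and 409 to 452 CPM under stress, while granulosa markers (4842 to 10613 and 7837 to 10124 CPM) and luteal markers (9401 to 13691 and 3498 to 11163 CPM) overlapped.

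In 2M-12W, where 0 members passed, oocyte markers were apart at 357 to 491 CPM in controls and 557 to 638 CPM under stress, as were theca markers at 7057 to 10108 and 10328 to 13230 CPM. There granulosa markers had 3501 to 7320.0 and 5993 to 9731 CPM and luteal markers 8103 to 18197 and 5128 to 9704 CPM. In 6M-8W, where 39 of 40 member folds were below 0, granulosa markers were on the high side under stress (4696 to 5404 and 5213 to 7065 CPM), as were luteal markers (8879 to 11573 and 10701 to 17293 CPM), and fibroblast markers were apart at 4369 to 4981 and 2857 to 3405 CPM. The part of these cells in the ovarian folds was not tested.

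Setting the tissues side by side, the mean mitotic folds ran from -1.25 to 0.01 in pituitary and from 0.05 to 0.22 in ovary. A joint fit of all 63 libraries tested the difference in stress fold, ovary minus pituitary, over 19047 genes. Averaged over the 4 sets it was above 0 for 22 members and below 0 for 0, at an adjusted p under 0.05, where 4.36% of all genes were higher and 5.87% lower. These were 17 of 21 mitotic and 5 of 17 replication genes, with median differences of 0.73 and 0.20 against 0.01 over all genes. The largest were those of Aurkb (1.45 ± 0.27), Mki67 (1.43 ± 0.20), Rrm2 (1.40 ± 0.24), Top2a (1.38 ± 0.23), Bub1 (1.33 ± 0.43), Ccnb1 (1.29 ± 0.30) and Cdk1 (1.22 ± 0.21). Beside Rrm2, the replication genes were Mcm2 (0.29 ± 0.08), Mcm3 (0.36 ± 0.09), Mcm5 (0.36 ± 0.11) and Mcm7 (0.26 ± 0.07). Mki67, Top2a, Cdk1, Rrm2, Aurkb, Ccna2, Cenpf, Kif11 and Kif20a passed in all 71 alternative fits. For these genes the pituitary fold was several times the ovary fold in size: for Mki67 it was -1.25 ± 0.19 in pituitary and 0.17 ± 0.07 in ovary.

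The tissue difference passed for members in 3 of the 4 sets. In 2M-8W 5 members passed (Mki67 2.00 ± 0.40, Rrm2 2.21 ± 0.49, Tpx2, Nusap1 and Kif23), where 1.6% of all genes were higher. In 2M-12W 4 passed (Ccnb1 2.23 ± 0.58, Top2a, Kif11 and Ccna2), against 0.63% of all genes. In 6M-12W 9 passed (Aurkb 2.48 ± 0.64, Mki67 1.96 ± 0.41, Top2a, Cenpf, Rrm2, Ccna2, Kif20a, Mcm2 and Mcm3), against 0.94%. In 6M-8W 0 passed by edgeR or DESeq2 (1 higher and 1 lower at an unadjusted p under 0.05), against 1.03% of all genes in either direction, and the mitotic median difference was 0.04, from medians of -0.23 in ovary and -0.25 in pituitary. These counts moved with single libraries, over 2 to 10 in 6M-12W, 1 to 10 in 2M-12W and 2 to 9 in 2M-8W. The extremes came without 2M-8W control ovary 4 or stressed pituitary 1 or ovary 1 (2 members) and stressed pituitary 4 (9), without 2M-12W control pituitary 2 or stressed ovary 4 (1) and control pituitary 1 (10), and without 6M-12W control ovary 2 (2).

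**Figure D5:**
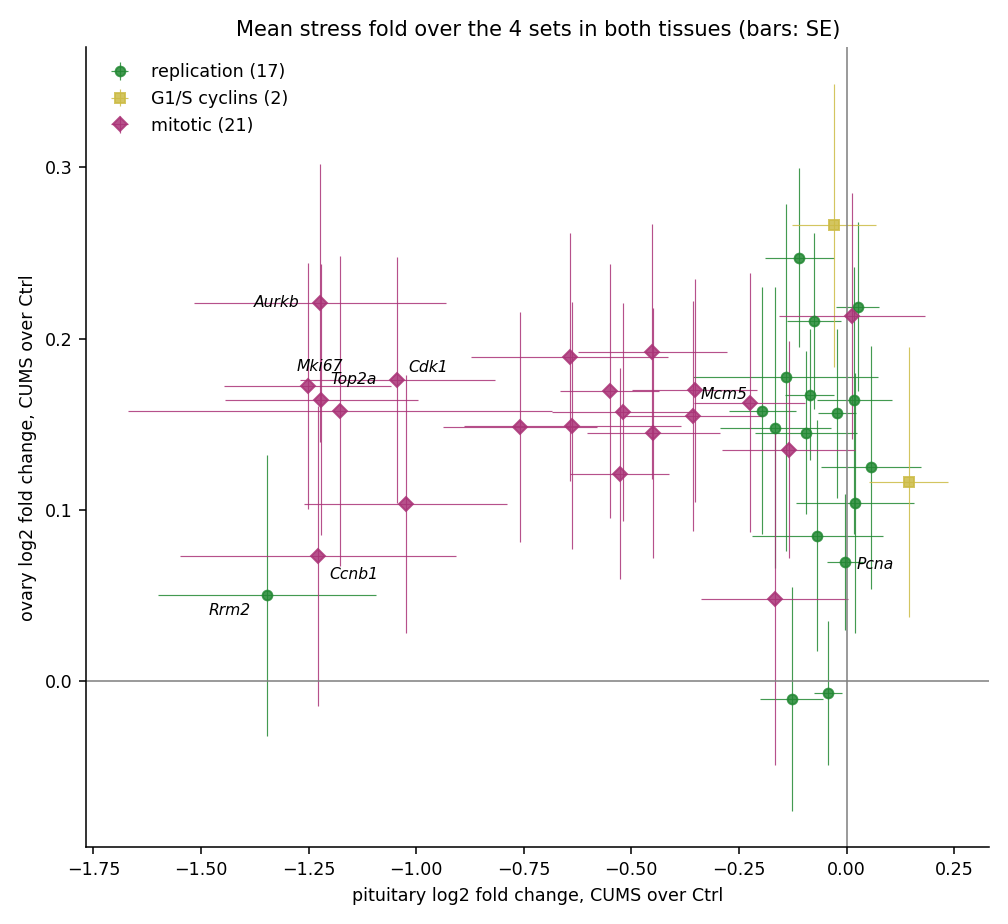
Mean log2 stress fold over the 4 sets in pituitary (x axis) and ovary (y axis) for the 40 members, with SE bars (circles replication, squares E-type cyclins, diamonds mitotic). The axes have different scales. Mitotic genes and Rrm2 spread to the left, down to -1.35, while no ovary fold exceeds 0.27.

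Among controls the members hardly differed with age or duration. In control pituitaries Cdc20 was lower at 6 than at 2 months (log2 difference -0.53 ± 0.18, adjusted p = 0.0435) and Ccne2 was higher after the 12-week than the 8-week schedule (0.46 ± 0.14, adjusted p = 0.0224), while 16.1% and 17.1% of all genes differed in either direction. In control ovaries 0 members passed by edgeR or DESeq2 in either comparison, with 5 and 3 lower at an unadjusted p under 0.05 and 0.287% and 0% of all genes past the threshold. From high to low, the mean mitotic level of control pituitaries (mean log2 of CPM + 0.5, n = 4 each) was 1.34 ± 0.44 (SD) for 2M-12W, 1.32 ± 0.23 for 2M-8W, 1.25 ± 0.35 for 6M-12W and 1.02 ± 0.21 for 6M-8W, and each neighbour in that order lay within the larger SD of the next.

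Further cell cycle genes, outside the 40, were counted in lists of known function, to be read beside the 3.37% of all genes that fell and the 3.07% that rose in the pituitary mean. In pituitary 14 of 34 tested further mitotic genes fell and 0 rose (median fold -0.53), with the smallest p for Prc1, which bundles the central spindle (-1.12 ± 0.21), Ckap2 (-0.92 ± 0.20) and the kinase Pbk (-1.48 ± 0.32). Of 31 tested further replication genes 1 fell, the checkpoint adaptor Clspn (-1.05 ± 0.28), and 0 rose (median 0.01). Another list held D-type cyclins, kinases, E2F factors, Rb family genes, Lin54, Mybl2 and Myc. Of its 19 genes 4 fell: E2f8, an E2F repressor (-1.51 ± 0.35), E2f1 (-0.35 ± 0.09), Ccnd1 (-0.18 ± 0.04) and Mybl2 (-0.31 ± 0.09). Of 14 cell cycle inhibitors 1 fell, Cdkn2b (-0.35 ± 0.08), and 0 rose. The counts of these lists, like those of the 40, were above the share of all genes that fell for mitosis and near it for replication. All of these lists, like the 40, were chosen with earlier results of these data known, so they are no independent check.

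In the ovary mean, where 8.86% of all genes rose and 11.5% fell, the further mitotic and replication genes held more risers than that share and the inhibitors more genes that fell. Of 36 further mitotic genes 9 rose, by small folds such as those of the phosphatase Cdc25b (0.21 ± 0.05), Kif2c (0.24 ± 0.07) and Knstrn (0.27 ± 0.08). Of 32 further replication genes 6 rose, among them Uhrf1, which maintains DNA methylation after replication (0.22 ± 0.07), the polymerase Pold1 (0.19 ± 0.06) and the helicase Hells (0.23 ± 0.07). Of the 19 genes of the list with D-type cyclins, kinases, E2F factors and Rb family genes 2 rose, a share near that of all genes: Cdk2 (0.19 ± 0.06) and E2f1 (0.18 ± 0.06). Of 14 cell cycle inhibitors 7 fell and 0 rose (median -0.22), led by Cdkn1b, which encodes p27 (-0.80 ± 0.11, adjusted p = 2.18e-05), Cdkn1a, which encodes p21 (-1.42 ± 0.20, adjusted p = 3.17e-05), and the antiproliferative gene Btg2 (-0.86 ± 0.13, adjusted p = 6.29e-05). The mean folds of these 3 inhibitors were larger in size than that of any of the 40 genes in ovary.

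Against the promoter words, 7 of the 10 genes that fell in pituitary had a window (Mki67, Top2a, Rrm2, Cdk1, Cenpf, Kif11 and Ccnb1), and all 7 held a CHR and a CCAAT word, compared with 13 and 17 of the 24 members with a window that did not pass. An E2F word was in 1 of these 7 and in 6 of the 24. Of the ovary genes that rose in the mean and had a window, 3 of 5 held an E2F word (Mcm3, Mcm6 and Mcm7), against 4 of 26 that did not pass. These words also go with role. Of the 7 pituitary genes all but Rrm2 are mitotic, and CHR and CCAAT words were each in 14 of 16 mitotic windows, whatever the call. Of the 5 ovary genes all but Cenpe are replication genes, and an E2F word was in 6 of 14 replication windows. The counts thus cannot tell the call apart from the role. The numbers are small and carry no test.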

How the data were processed

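Bulk RNA-seq of 31 ovary and 32 pituitary libraries was used as deposited, in 1 table per tissue with 34745 genes and a read count and an FPKM per library. Per the labels, total RNA was made into libraries with an NEBNext Ultra II RNA kit. The authors deposited whole-number read counts per gene and FPKM values (scaled to gene length and library size). Which aligner, counter, strand setting and annotation they used is not given in the sources used here. Counts were tested with edgeR 4.0.16 (R 4.3.3): TMM scaling, filterByExpr, 8 groups per tissue in 1 quasi-likelihood model, Benjamini-Hochberg adjustment over all genes tested, threshold 0.05. A joint model of 16 groups gave the ovary minus pituitary difference. Gene levels were compared per length by the deposited FPKM, and marker sums are CPM without TMM factors. Alternatives were DESeq2 1.42.0, RLE factors, no filter, own groups only, a replicate block, and leaving out libraries or sets. The tests of the means of 4 sets, but not those of single sets, ages or durations, were also tried on simulated counts. The 40 genes and all lists were chosen with earlier results of these data known. Per-library values are given for Mki67, Top2a, Ccnb1, Cdk1, Pcna, Mcm2, Mcm5, Rrm2 and, per tissue, the 3 mitotic and 3 replication genes of smallest p. No replicate tables were identical. Promoter windows are from RefSeq (GRCm38.p6).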

Additional observations from a re-analysis of the deposited data

Results flagged for a closer look

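A library stood apart from the other 3 of its group, by a gap past Dixon's 95% critical value, in 16 of 240 groups of 4 examined over 16 genes; chance alone gives such a gap in about 1 in 20 groups. In ovary, stressed library 3 of 2M-8W was high for Mki67 (259 CPM), Top2a (245 CPM), Ccna2 (106 CPM) and Cenpe (49.3 CPM), and stressed library 4 of 2M-12W for Cenpe (42.9 CPM). Stressed library 4 of 6M-8W was high for Mcm3 (69.5 CPM), Mcm7 (99.6 CPM) and Ccnb2 (33.1 CPM), and control 3 of that set was low for Mcm5 (38.1 CPM) and Pcna (66.1 CPM). Mcm5 was high in 2M-8W control 2 (68.8 CPM), and Mcm2 was high in 2M-12W control 1 (73.6 CPM) and low in stressed library 1 of that set (60.1 CPM). In pituitary the outlying values were Mcm5 in 6M-12W control 1 (10.7 CPM), Mcm6 in 6M-8W control 2 (17.2 CPM) and Ccnb1 in 6M-12W stressed library 1 (0.355 CPM).

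The ovarian stress fold at 6 months differed between 12 and 8 weeks for 13 genes by a test of the difference itself (edgeR), with log2 differences of 0.81 for Mcm2, 0.62 for Mcm3, 0.98 for Mcm5, 0.47 for Mcm7 and 0.66 for Cdk1. No library was left out in turn for this comparison. The stress fold differed between ovary and pituitary for 22 genes in the mean of the sets, and for 5 in 2M-8W, 4 in 2M-12W and 9 in 6M-12W. The mean differences were 0.29 for Mcm2, 0.36 for Mcm3, 0.36 for Mcm5, 0.26 for Mcm7, 1.40 for Rrm2, 0.73 for Ccna2, 1.29 for Ccnb1, 0.83 for Ccnb2, 1.22 for Cdk1, 1.45 for Aurkb, 1.43 for Mki67 and 1.38 for Top2a.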

How the results depend on the processing

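The counts below are genes of the 40 past the threshold. Single genes were followed only for those given per library, and only in the means of 4 sets and their tissue difference. Of the fits that left out a library, only those with the lowest and highest fold entered. Among these values, 376 kept their direction and their side of the threshold, 26 lost the threshold, 14 gained it and 8 changed sign. The causes were not tested. The pituitary mean stayed at 10 to 14 when any library was left out. The ovary 2M-8W count of 14 was 9 with no filter, and 0 with a replicate block, with own groups only or without stressed ovaries 1 and 3. The ovary 6M-8W count of 1 was 0 with no filter, with the block and with own groups only, and the 6M-12W count of 10 was 16 with own groups only. The ovary mean of 8 was 5 with the block, 3 without the 2M-8W set, 30 without 6M-8W and 3 without 6M-12W. DESeq2 called 17 and 2 for the ovary age contrasts at 8 and 12 weeks, where edgeR called 0. In pituitary it called 4 in 6M-12W, 3 in 2M-12W and 1 in each 8-week set, and 2 each by age and by duration in controls (1 each by edgeR, and 0 by age with no filter). Pituitary 6M-12W (1) was 2 with the block and 0 with own groups only or without controls 3 and 4. The tissue difference of 22 was 11 without 2M-8W and 12 without 6M-12W. In 2M-8W (5) it was 14 by DESeq2, 3 with no filter and 1 with the block, in 2M-12W (4) 9 by DESeq2 and 2 with the block, and in 6M-12W (9) 5 with the block.

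Leaving out 1 library at a time, the counts ran from 5 to 21 in the ovary mean, with 5 to 8 in 6M-12W, 0 to 11 in 2M-8W, 0 to 6 in 6M-8W and 0 to 1 in 2M-12W. In pituitary they ran from 0 to 3 in 2M-12W and 0 to 2 in 6M-12W, and were 0 throughout in 2M-8W and 6M-8W. For the tissue difference they ran from 20 to 25 in the mean, with 2 to 10 in 6M-12W, 1 to 10 in 2M-12W, 2 to 9 in 2M-8W and 0 in 6M-8W. Replicate numbers were not shown to pair the samples: same-numbered control and stressed libraries had correlations of -0.24 to 0.27 (mean 0.021), and 0 of 8 groups had every pair over 0.1. Same-numbered ovary and pituitary libraries of a group had -0.092 to 0.17 (mean 0.037), again with 0 of 8 groups. Their group means were small but all above 0, from 0.0066 to 0.092. The joint model treats the 63 libraries as separate, and whether ovaries and pituitaries share animals is not stated.

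Signs changed as follows, for folds that had not passed. Ccnb1 in the ovary mean was -0.017 without the 2M-12W set, Mcm5 (0.16 with all sets) was -0.034 without 6M-12W, and Rrm2 was -0.057 without 2M-8W and -0.056 without 6M-12W. Pcna in the pituitary mean was 0.013 without 6M-12W controls 3 and 4, 0.025 without 2M-8W and 0.015 without 2M-12W, and ran from -0.024 to 0.019 with a library left out. Low pituitary counts limit Ccnb1, Rrm2, Bub1 and Cdk1, as well as Cdc6, Tk1 and Gins1.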
